A study of Mus musculus with 12 samples.

Results

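The oxidative phosphorylation subunits of mouse liver were taken as the protein-coding genes whose symbols begin with Nduf, Uqcr, Cox4 to Cox8, Atp5 or mt-, together with Sdha, Sdhb, Sdhc and Sdhd. These letters caught 106 of the 35275 genes in the table, 93 encoded in the nucleus and 13 in the mitochondrial genome. They comprise 43 genes of complex I, 8 assembly factors of complex I, 4 genes of complex II, 9 of complex III, 23 of complex IV, 18 of ATP synthase and Atp5s, which carries the ATP synthase name without being a subunit. The rule reads symbols alone. A mean level of at least 0.5 FPKM over the libraries was reached by 103 members, 90 nuclear and 13 mitochondrial, and these were tested. The remaining 3 are isoforms of complex IV. Cox4i2, the lung isoform of subunit 4, was at 0 to 0.352 FPKM, and Cox7b2 and Cox8c, which are known from testis, were listed at 0 in every library.

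Oxidative phosphorylation takes place at the inner mitochondrial membrane. Complexes I and II take electrons from NADH and succinate and pass them through coenzyme Q to complex III, from there through cytochrome c to complex IV, and so to oxygen. Complexes I, III and IV pump protons out of the matrix, and ATP synthase lets them return through its membrane rotor while its catalytic head makes ATP. Each of these enzymes except complex II combines subunits made in the cytosol from nuclear genes with subunits made inside the organelle from its own circular genome. The subunits that carry electrons, pump protons or make ATP are called core or catalytic subunits, and the accessory subunits surround and stabilize them. In liver these enzymes reoxidize the NADH and flavins that fatty acid oxidation produces.

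Livers came from wild-type (WT) mice and from Pctp-/- mice, a whole-body knockout of phosphatidylcholine transfer protein (PC-TP), each fed chow or a methionine and choline deficient (MCD) diet that leads to fat accumulation in the liver. Each of the 4 groups held 3 mice with 1 library per mouse, 12 libraries in all. Whole liver RNA was sequenced, so hepatocytes and the other cells of the tissue were measured together, and the knockout was not limited to hepatocytes. The paper reports that the animals of the study were all male. The strain and age of the sequenced mice and the length of the diet are not given in the sources used here. Levels are FPKM, the fragments of a gene per kilobase of its transcript, scaled to the fragments mapped in the library. In lists of values the 3 mice of a group are given in the order of their replicate numbers. Differences were computed from log2(FPKM + 1), where the added 1 shrinks those of genes at low level, and a member is said to have risen, fallen or changed where the adjusted p from limma was under 0.05.

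The targeted gene separated the genotypes. Pctp was at 2.25, 1.21 and 2.65 FPKM in WT and 0.566, 0.364 and 0.330 FPKM in Pctp-/- mice on chow, and at 7.90, 5.10 and 3.61 FPKM in WT and 0.156, 0.329 and 0.292 FPKM in Pctp-/- mice on MCD. Uniquely mapped reads numbered 30486576 to 55179468 per library on chow and 33463498 to 46246856 on MCD. The chow and MCD libraries also differed in the share of reads mapped uniquely, 77.6 to 79.4% against 85.7 to 87.5%, in the share mapped to several places, 4.07 to 4.84% against 6.50 to 7.40%, and in the GC content of the reads, 49.8 to 51.2% against 48.4 to 49.2%. Base quality differed too, with a Q30 share of 86.3 to 87.1% in the chow and 93.5 to 94.6% in the MCD libraries, and listed error rates of 0.03% against 0.01%. Diet and these measures of the sequencing cannot be told apart, whereas the genotypes were compared among libraries of like kind. Among WT mice on chow, replicate 1 held the lowest value for 77 of the 103 tested members, and among WT mice on MCD replicate 1 did so for 80. WT replicates 1 and 2 on MCD also carried RNA of striated muscle genes, described with the muscle isoforms of complex IV.

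The members took a larger share of the liver transcript pool on MCD than on chow in both genotypes. Summed over the 93 nuclear members, the level was 9666, 11247 and 11443 FPKM in WT mice on chow and 14728, 16342 and 16502 FPKM in WT mice on MCD. In Pctp-/- mice the corresponding sums were 11086, 11124 and 12423 FPKM on chow and 14692, 13871 and 14875 FPKM on MCD. Neither genotype showed overlap between the diets. The 13 mitochondrial genes, which include some of the most abundant transcripts of the cell, summed to 23140, 27121 and 27642 FPKM in WT mice on chow and 43334, 44089 and 40478 FPKM on MCD. Their sums in Pctp-/- mice were 23298, 25736 and 27995 FPKM on chow and 44849, 38259 and 36801 FPKM on MCD. Mitochondrial genes thus made up 4.77 to 5.55% of all FPKM on chow and 7.11 to 8.55% on MCD, and nuclear members 2.08 to 2.46% and 2.73 to 3.09%. The ratio of mitochondrial to nuclear sums lay between 2.10 and 2.42 in chow mice and between 2.45 and 3.05 in MCD mice. In these whole-tissue values, fewer cells of a type and less RNA per cell cannot be told apart.

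The enzymes did not contribute equally to the higher sums on MCD. The 36 nuclear genes of complex I summed to 2452 to 2966 FPKM in WT mice on chow and to 3627 to 4104 FPKM on MCD. For the 8 nuclear genes of complex III the sums were 1146 to 1391 and 1998 to 2299 FPKM, for the nuclear genes of complex IV 2741 to 3382 and 4472 to 5034 FPKM, and for those of ATP synthase 2736 to 3107 and 4035 to 4423 FPKM. Complex II stood apart, with 502 to 515 FPKM on chow and 482 to 516 FPKM on MCD, so that its diets overlapped. Complex II also overlapped between the diets in Pctp-/- mice, at 489.9 to 556 FPKM on chow and 479 to 534 FPKM on MCD.

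Of the 103 tested members, 69 rose and 8 fell on MCD in WT mice, where 34.5% of all 12466 genes tested rose and 22.5% fell. In Pctp-/- mice 53 members rose and 11 fell, beside 26% and 24.4% of all genes. The median difference over the members was 0.59 in WT and 0.39 in Pctp-/- mice, against medians over all genes of 0.11 and 0.04. Leaving out 1 library moved the count of falls in WT mice by more than 1.5 times in one case, to 4 without WT replicate 1 on MCD. In both genotypes 52 members rose and 6 fell. Another 17 rose in WT mice without passing in Pctp-/- mice, 1 did the reverse, and no member passed in opposite directions. These counts across genotypes were not made over all genes, of which likewise fewer rose in Pctp-/- mice (26%) than in WT mice (34.5%). Among nuclear members 64 of 90 rose in WT mice with a median of 0.60, and 47 rose in Pctp-/- mice with a median of 0.39. Among mitochondrial genes 5 of 13 rose in WT mice with a median of 0.24, and 6 rose in Pctp-/- mice with a median of 0.39. With GC content and transcript length taken into account the mitochondrial medians were -0.37 and -0.26, so their direction depends on that choice. Summed levels of marker genes of several liver cells moved with the diet as well. The sum of 7 macrophage markers was between 59.95 and 161 FPKM in chow mice and between 269 and 524 FPKM in MCD mice, and that of 7 stellate cell markers between 35.4 and 63.2 and between 147 and 210.0 FPKM. Among the macrophage markers Lyz2, at 12.2 to 32.9 and 123.5 to 336.6 FPKM, Cd68 and Vsig4 lay higher on MCD without overlap. Clec4f, Cd5l, Adgre1 and Timd4 overlapped between the diets. Among the stellate cell markers Dcn, at 23.0 to 42.3 and 114 to 155 FPKM, Rgs5 and Lrat lay higher without overlap. Col1a1, Col3a1, Des and Acta2 overlapped. The sum of 5 hepatocyte markers, between 39225 and 44242 FPKM on chow and between 52381 and 73543 FPKM on MCD, was carried by Alb, albumin, at 26290 to 29920 and 41400 to 61590 FPKM. Of the others, Apoa1 lay lower on MCD, at 7910 to 9389 and 5272 to 7649 FPKM, and Ttr, Cps1 and Serpina1c overlapped between the diets. The part of these cells in the members' levels was not tested.

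**Figure D1:**
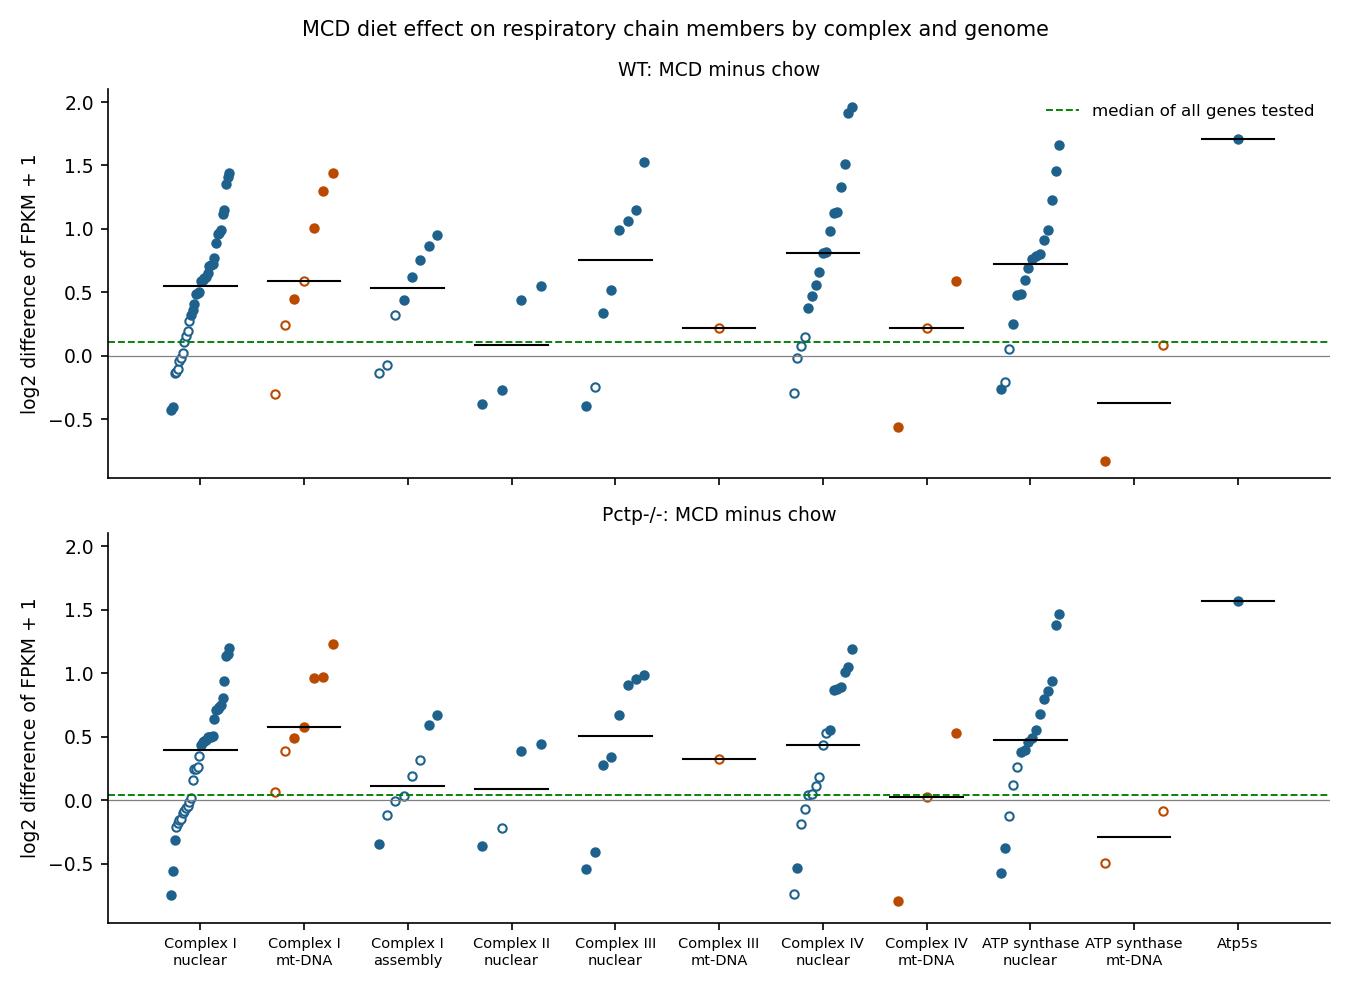
The log2 difference of FPKM + 1 between MCD and chow for each tested member, by enzyme and by the genome that encodes it, in WT mice and in Pctp-/- mice. Each point is 1 gene, filled where it passed the test and open where it did not, black bars are medians of a set, and the dashed line is the median of all genes tested. Nuclear members of complexes I, III and IV and of ATP synthase lie mostly above the line in WT mice, with medians of 0.55, 0.76, 0.81 and 0.73.

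Complex I oxidizes NADH and is the largest enzyme of the chain. Its nuclear subunits were counted by role. Of 29 accessory subunits, 22 rose in WT and 16 in Pctp-/- mice on MCD and no accessory subunit fell in either, with medians of 0.62 and 0.47. Of the 7 nuclear core subunits, which hold the flavin and the iron-sulfur clusters, 2 rose and 2 fell in WT mice, 2 rose and 3 fell in Pctp-/- mice, and the medians were 0.11 and -0.09. These counts and those of the enzymes below stand beside 34.5% of all genes that rose and 22.5% that fell in WT mice. In Pctp-/- mice those shares were 26% and 24.4%. The medians over all genes were 0.11 in WT and 0.04 in Pctp-/- mice, so the core subunits had the median of all genes in WT mice. The plot of diet differences by complex shows nuclear complex I genes on both sides of 0.

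Ndufa5, an accessory subunit of the arm that reaches into the matrix, was at 50.4, 69.6 and 75.9 FPKM in WT mice on chow and 145, 179 and 176 FPKM on MCD. The Pctp-/- mice had 57.8, 63.1 and 67.7 FPKM on chow and 163, 137 and 138 FPKM on MCD. Every MCD mouse lay above every chow mouse, and the differences were 1.35 (standard error 0.15, adjusted p = 1.18e-05) in WT and 1.20 (standard error 0.15, adjusted p = 3.96e-05) in Pctp-/- mice. Ndufb9, the most abundant nuclear gene of the complex, was at 222, 269.6 and 274 FPKM on chow and 345, 412 and 421 FPKM on MCD in WT mice, a rise of 0.62 (standard error 0.11, adjusted p = 0.000624). Among accessory subunits named after their values were seen, Ndufa1 of the membrane arm rose by 1.44 in WT and 1.16 in Pctp-/- mice, and Ndufs4, whose loss is a known cause of Leigh-like disease in mice and humans, rose by 1.41 and 1.13. Ndufb2 was the least abundant tested nuclear gene of complex I, at 0.250 to 1.28 FPKM over the libraries, and still rose by 0.50 and 0.46. The next in order, Ndufs5, was at 6.15 to 20.4 FPKM, so that the levels of the 2 genes did not overlap.

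Falls in complex I included core subunits. Ndufv1, which binds NADH and the flavin, was at 118, 118 and 122 FPKM in WT mice on chow and 82.9, 92.2 and 90.1 FPKM on MCD. Levels in Pctp-/- mice were 119, 117 and 118 FPKM on chow and 75.6, 76.0 and 88.4 FPKM on MCD, and neither genotype had overlapping diets. On the log2 scale it fell by 0.43 in WT mice (standard error 0.08, adjusted p = 0.000864) and by 0.56 in Pctp-/- mice (standard error 0.08, adjusted p = 0.000165). Ndufs7, which carries the last iron-sulfur cluster before coenzyme Q, was at 113, 104 and 112 FPKM in WT mice on chow and 73.0, 89.3 and 86.5 FPKM on MCD, a difference of -0.40 (standard error 0.12, adjusted p = 0.0139). In Pctp-/- mice the levels were 107, 135 and 141 FPKM and 68.6, 73.1 and 84.2 FPKM, with a difference of -0.75 (standard error 0.12, adjusted p = 0.000337). Ndufs1 and Ndufv2, core subunits beside Ndufv1 that were named after their values were seen, went the other way, with rises of 0.50 and 0.59 in WT mice.

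Assembly factors of complex I build the enzyme without staying in it. Of 8 tested, 5 rose in WT mice with a median of 0.53, and 2 rose and 1 fell in Pctp-/- mice with a median of 0.11. The rises were 62.5% in WT mice, beside 34.5% of all genes. In Pctp-/- mice they were 25%, near the 26% of all genes, and the falls 12.5% beside 24.4%. Ndufaf5 was at 3.05, 2.18 and 3.17 FPKM in WT mice on chow and 5.95, 5.07 and 5.17 FPKM on MCD, a rise of 0.76 (standard error 0.18, adjusted p = 0.00323). Its values in Pctp-/- mice of 2.28, 3.50 and 4.67 FPKM on chow and 4.34, 3.50 and 4.14 FPKM on MCD overlapped, with a difference of 0.19. Ndufaf8 was at 19.5, 22.8 and 18.3 FPKM in WT mice on chow and 29.0, 32.5 and 33.0 FPKM on MCD, a rise of 0.62 (standard error 0.13, adjusted p = 0.0013). Its values in Pctp-/- mice were 26.9, 23.5 and 26.6 FPKM and 30.2, 21.2 and 25.9 FPKM and overlapped (95% interval of the difference -0.28 to 0.27).

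Complex II oxidizes succinate and is at once an enzyme of the citrate cycle. Its catalytic and anchoring subunits moved in opposite directions. Sdha, which holds the flavin, was at 210.1, 175 and 174 FPKM in WT mice on chow and 158, 149.9 and 153 FPKM on MCD, and it fell by 0.27 (standard error 0.10, adjusted p = 0.0367). It was, in Pctp-/- mice, at 217, 185 and 175 FPKM on chow and 159, 164 and 171 FPKM on MCD, a difference of -0.22 (standard error 0.10, adjusted p = 0.0902) that did not pass although the diets did not overlap. Sdhb, the iron-sulfur subunit, was at 154, 175 and 177 FPKM in WT mice on chow and 117, 133 and 136 FPKM on MCD. Its values in Pctp-/- mice were 165, 164 and 178 FPKM on chow and 120.1, 126 and 148 FPKM on MCD. It changed by -0.38 (standard error 0.10, adjusted p = 0.00676) in WT and -0.36 (standard error 0.10, adjusted p = 0.0104) in Pctp-/- mice, with every MCD value below every chow value.

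The membrane anchors Sdhc and Sdhd bind coenzyme Q. Sdhc was at 33.6, 38.1 and 37.5 FPKM in WT mice on chow and 53.9, 53.9 and 53.5 FPKM on MCD, and at 38.1, 36.5 and 39.0 FPKM and 49.4, 48.2 and 57.9 FPKM in Pctp-/- mice. It rose by 0.55 (standard error 0.09, adjusted p = 0.000232) in WT and 0.44 (standard error 0.09, adjusted p = 0.00142) in Pctp-/- mice. Sdhd was at 118, 115 and 126 FPKM in WT mice on chow and 153, 162 and 173 FPKM on MCD, and at 136, 104 and 117 FPKM and 151, 159 and 157 FPKM in Pctp-/- mice. Its rises were 0.44 (standard error 0.10, adjusted p = 0.00233) and 0.39 (standard error 0.10, adjusted p = 0.0058). Sdha and Sdhb together summed to 349 to 382 FPKM in chow mice and 275 to 319 FPKM in MCD mice, and the anchors to 141 to 174 FPKM and 200.3 to 226 FPKM. With GC content and transcript length taken into account, Sdha, Sdhb and Sdhc kept their calls in WT mice and the differences of Sdhd became 0.09 in WT and 0.15 in Pctp-/- mice without passing. The difference of Sdha in Pctp-/- mice passed with it, at -0.29 (adjusted p = 0.038).

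Complex III passes electrons from coenzyme Q to cytochrome c. Of its 8 nuclear genes in the list, 6 rose and 1 fell in WT mice and 6 rose and 2 fell in Pctp-/- mice. The small subunits moved most. Uqcr10 was at 172, 202 and 194 FPKM in WT mice on chow and 501, 562 and 577 FPKM on MCD. The values in Pctp-/- mice were 211, 225 and 283 FPKM on chow and 501, 420.4 and 422 FPKM on MCD. The WT difference of 1.52 (standard error 0.12, adjusted p = 1.35e-06) corresponds to 2.88-fold, and the Pctp-/- difference was 0.91 (standard error 0.12, adjusted p = 8.74e-05).

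Uqcr11 was at 209, 251 and 241 FPKM in WT mice on chow and 489.5, 528 and 536 FPKM on MCD, and at 239.8, 301 and 372 FPKM and 482, 456 and 496 FPKM in Pctp-/- mice. It rose by 1.15 (standard error 0.14, adjusted p = 2.44e-05) and 0.67 (standard error 0.14, adjusted p = 0.00148). The core proteins Uqcrc1 and Uqcrc2, which form the matrix side of the enzyme, parted. Uqcrc1 was at 171, 173 and 169 FPKM in WT mice on chow and 125, 131 and 134 FPKM on MCD, and at 169, 178 and 181 FPKM and 122, 110.4 and 129 FPKM in Pctp-/- mice. Its differences were -0.40 (standard error 0.08, adjusted p = 0.00115) and -0.54 (standard error 0.08, adjusted p = 0.000158), and the diets did not overlap in either genotype. Uqcrc2 was at 104, 114 and 119 FPKM in WT mice on chow and 134, 145 and 148 FPKM on MCD, and it rose by 0.34 in WT and 0.34 in Pctp-/- mice. The rise of Uqcrc2 was lost with GC content and length taken into account, at -0.04 in WT mice. Uqcrq, named after its values were seen, fell in Pctp-/- mice by 0.41 (standard error 0.14, adjusted p = 0.0267), in contrast to the other small subunits.

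Complex IV reduces oxygen. Its core is made from the mitochondrial genome, and most nuclear subunits have alternative isoforms. Of 17 tested nuclear genes, 13 rose and none fell in WT mice with a median of 0.81, where the unadjusted p was under 0.05 for 13, and 7 rose and 1 fell in Pctp-/- mice with a median of 0.43. Cox7a2, the liver form of subunit 7a, was at 87.0, 117 and 131 FPKM in WT mice on chow and 290.1, 321 and 336 FPKM on MCD. Those of Pctp-/- mice were 105, 111 and 130.3 FPKM on chow and 315, 252 and 231 FPKM on MCD. The rises were 1.51 (standard error 0.16, adjusted p = 8.77e-06) and 1.19 (standard error 0.16, adjusted p = 6.83e-05).

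Cox6b1, which faces cytochrome c, was at 204, 285 and 295 FPKM in WT mice on chow and 513, 591 and 599 FPKM on MCD, a rise of 1.13 (standard error 0.14, adjusted p = 3.55e-05), and it rose by 0.87 in Pctp-/- mice. Cox7a2l, a factor that joins complex III to complex IV in supercomplexes, rose by 0.81 and 0.87. Ndufa4, named for complex I but placed in complex IV, was at 390, 582 and 607 FPKM in WT mice on chow and 745, 821 and 889.9 FPKM on MCD, a rise of 0.66 (standard error 0.15, adjusted p = 0.00294) that became 0.11 without passing once GC content and length were taken into account. Cox8a rose by 0.56 in WT mice (adjusted p = 0.00235) and had a difference of 0.11 in Pctp-/- mice (adjusted p = 0.471), which became a rise of 0.50 (adjusted p = 0.00761) with the same correction. Cox4i1, the ubiquitous isoform of subunit 4, was at 295, 375 and 376 FPKM in WT mice on chow and 354, 409 and 389 FPKM on MCD. Its difference of 0.15 did not pass in WT mice (95% interval -0.10 to 0.39), and neither did that of -0.07 in Pctp-/- mice (95% interval -0.31 to 0.18).

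ATP synthase was counted by its catalytic head, stalk and membrane parts. The F1 head is formed by Atp5a1 to Atp5e, of which 2 rose and 1 fell in WT mice and 2 rose and 2 fell in Pctp-/- mice. The shares of the head in WT mice, 40% and 20%, were near the 34.5% and 22.5% of all genes. In Pctp-/- mice they were 40% each, beside 26% and 24.4% of all genes. All 4 genes of the peripheral stalk and all 4 small genes of the membrane part rose in both genotypes. Atp5b, the catalytic beta subunit, was at 709, 686 and 661 FPKM in WT mice on chow and 707, 711 and 712 FPKM on MCD, and at 754, 659 and 655 FPKM and 632, 609 and 656 FPKM in Pctp-/- mice. Neither difference passed, at 0.05 (95% interval -0.13 to 0.23) and -0.12 (95% interval -0.30 to 0.06). In Pctp-/- mice it passed as lower, at -0.29 (adjusted p = 0.0197), with GC content and length taken into account, and as higher, at 0.19 (adjusted p = 0.0436), with quantile normalization.

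The small membrane subunits shape the dimers of the enzyme and with them the cristae. Atp5mpl was at 117, 205 and 203 FPKM in WT mice on chow and 499, 562 and 561 FPKM on MCD, and at 160.1, 148 and 183 FPKM and 536, 411 and 418 FPKM in Pctp-/- mice. It rose by 1.67 (standard error 0.19, adjusted p = 1.83e-05) and 1.47 (standard error 0.19, adjusted p = 6.23e-05). Atp5k was at 61.0, 90.6 and 85.7 FPKM in WT mice on chow and 209.9, 216 and 223 FPKM on MCD, and at 84.1, 76.4 and 106 FPKM and 177, 253 and 276 FPKM in Pctp-/- mice. Its rises were 1.46 (standard error 0.18, adjusted p = 3.86e-05) and 1.38 (standard error 0.18, adjusted p = 7.40e-05). For both genes every MCD value lay above every chow value.

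In Atp5d, the delta subunit of the head, the fall was called in Pctp-/- mice, from 224, 231 and 244 FPKM on chow to 153, 148 and 169 FPKM on MCD, with a difference of -0.57 (standard error 0.08, adjusted p = 0.000158). In WT mice Atp5d was at 203, 201 and 207 FPKM on chow and 163, 186 and 181 FPKM on MCD, and the difference of -0.21 had an adjusted p of 0.0509. The 3 genes Atp5g1, Atp5g2 and Atp5g3 encode the same mature c subunit of the rotor ring with different import signals. Atp5g3 was the most abundant at 323 to 435 FPKM, followed by Atp5g2 at 73.7 to 152 FPKM and Atp5g1 at 27.1 to 50.9 FPKM, and these ranges did not overlap. In WT mice they rose by 0.69, 0.76 and 0.25 in the order of their numbers, and in Pctp-/- mice Atp5g2 rose by 0.55. Atp5s, a coupling factor homolog that is not a subunit, had the steepest called rise among members in Pctp-/- mice. It was at 2.01, 1.86 and 1.56 FPKM in WT mice on chow and 8.34, 8.46 and 7.68 FPKM on MCD, and at 1.87, 2.21 and 1.86 FPKM and 8.31, 6.16 and 9.37 FPKM in Pctp-/- mice, with rises of 1.71 (standard error 0.13, adjusted p = 1.05e-06) and 1.57 (standard error 0.13, adjusted p = 2.57e-06).

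The mitochondrial genome encodes 7 subunits of complex I, cytochrome b of complex III, 3 core subunits of complex IV and 2 subunits of ATP synthase. It is transcribed as long precursors from both strands, from which the messengers are cut. All 13 were tested, and their levels spanned a wide range, from mt-Co1 at 8592 to 15216 FPKM to mt-Atp8 at 0.257 to 2.10 FPKM. Some of these genes have near-identical copies in nuclear DNA. A block on chromosome 1 from 24611535 to 24616197 (GRCm38, minus strand) holds 7 annotated pseudogenes that copy mt-Co1 in part, mt-Co2, mt-Atp6, mt-Co3, mt-Nd3, mt-Nd4l and mt-Nd4 in part. In the annotated transcripts, mt-Co2 and its copy Gm28661 were identical over 681 aligned bases, mt-Atp6 and Gm10925 over 678, mt-Co3 and Gm28437 over 783, and mt-Nd4l and Gm10222 over 294. The first 60 bases of mt-Co2 and mt-Nd3 are shown with their copies to let the identity be seen, 5′ to 3′ on the coding strand, for mt-Co2 at chrM:7013-7072 and its copy at chr1:24615506-24615565, and for mt-Nd3 at chrM:9459-9518 and its copy at chr1:24613060-24613119. Capitals mark a base that differs between gene and copy.
mt-Co2: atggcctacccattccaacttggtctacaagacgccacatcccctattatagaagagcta
Gm28661: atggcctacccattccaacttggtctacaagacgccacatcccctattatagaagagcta
mt-Nd3: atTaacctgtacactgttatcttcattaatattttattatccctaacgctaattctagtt
Gm28438: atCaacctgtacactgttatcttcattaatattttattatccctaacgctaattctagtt
The single difference between mt-Nd3 and Gm28438 over 345 aligned bases was T3C, counted from the first base of the gene with the base of mt-Nd3 first. A read from such a stretch fits both places. The 5 genes copied over at least 90% of their length were listed at 17.5 to 273 FPKM and the 2 copied in part at 1380 to 15216 FPKM. The 5 genes other than mt-Atp8 with no annotated copy in that block were at 1013 to 11076 FPKM. The copies had listed levels of their own, and in one pair, chosen after its values were seen, mt-Co3 was at 135, 191 and 202 FPKM and Gm28437 at 135, 193 and 208 FPKM in WT mice on chow. How the reads were assigned between gene and copy is not given in the sources used here, and its part in these levels was not tested. Values of the 5 copied genes are therefore uncertain. mt-Atp8 has no annotated copy in that block and overlaps mt-Atp6 by 43 bases. It lies between mt-Co2 and mt-Atp6, which are both copied there. Whether the block also holds the sequence of mt-Atp8 was not examined, so its values are uncertain as well.

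Copies outside the chromosome 1 block were not searched for. Among mitochondrial genes with no annotated copy in that block, mt-Nd1 of complex I was at 3292, 3927 and 4222 FPKM in WT mice on chow and 11076, 10286 and 9611 FPKM on MCD, a rise of 1.44 (standard error 0.16, adjusted p = 1.25e-05). Its levels in Pctp-/- mice were 3634, 3754 and 4268 FPKM on chow and 9700.2, 6378 and 7139.8 FPKM on MCD, a rise of 0.97 (standard error 0.16, adjusted p = 0.000295). The diets did not overlap in either genotype. With GC content and length taken into account the rise was 0.82 in WT mice, and 0.35 in Pctp-/- mice (adjusted p = 0.0699) did not pass. The only protein gene of the light strand, mt-Nd6, was at 1013, 1342 and 1367 FPKM in WT mice on chow and 2898, 3249 and 2957 FPKM on MCD, and at 1061, 1321 and 1452 FPKM and 3348, 2683 and 2944 FPKM in Pctp-/- mice. It rose by 1.30 (standard error 0.15, adjusted p = 1.76e-05) and 1.23 (standard error 0.15, adjusted p = 3.52e-05), and it overlaps mt-Nd5 on the other strand by 14 bases.

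Smaller differences were found for the other genes with no annotated copy in that block. In WT mice mt-Nd5 rose by 0.45 and in Pctp-/- mice by 0.49. mt-Nd2 was at 2313, 2445 and 2579 FPKM in WT mice on chow and 2845, 2794 and 3017 FPKM on MCD, a difference of 0.24 with an adjusted p of 0.0831, whereas it rose in Pctp-/- mice by 0.58. mt-Cytb, the catalytic subunit of complex III, differed by 0.22 and 0.32 without passing in either genotype. Of the genes copied in part, mt-Nd4 rose by 1.00 and 0.96, and mt-Co1, the catalytic subunit of complex IV, was at 8592, 10043 and 10008 FPKM in WT mice on chow and 14518, 14634 and 13842 FPKM on MCD, a rise of 0.59 (standard error 0.12, adjusted p = 0.00105), with 0.53 in Pctp-/- mice. With GC content and length taken into account the rises of mt-Co1 (-0.03 and -0.02), of mt-Nd5 (-0.16 and -0.11) and of mt-Nd2 in Pctp-/- mice (-0.08) were lost with a turn of sign. In WT mice mt-Nd2 and mt-Cytb then passed as lower, at -0.37 and -0.41, and mt-Nd4 rose by 0.40, while its difference of 0.31 in Pctp-/- mice (adjusted p = 0.0715) did not pass.

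Of the 5 genes copied over at least 90% of their length, mt-Co3 fell and the others did not pass. mt-Co3 was at 135, 191 and 202 FPKM in WT mice on chow and 105, 128 and 121 FPKM on MCD, and at 165, 159.5 and 211 FPKM and 124, 89.6 and 94.5 FPKM in Pctp-/- mice. It fell by 0.56 in WT mice (standard error 0.17, adjusted p = 0.0151) and by 0.79 in Pctp-/- mice (standard error 0.17, adjusted p = 0.00231), and its copy Gm28437 fell by 0.63 and 0.91. For mt-Nd3 the differences were 0.59 and 0.39 and neither passed, while its copy Gm28438 rose by 1.95 and 2.11. mt-Co2 differed by 0.22 and 0.02, mt-Atp6 by 0.09 and -0.09 and mt-Nd4l by -0.30 and 0.06, and none of these passed. With GC content and length taken into account, mt-Atp6 passed as lower in both genotypes (-0.50 and -0.74), mt-Co2 in Pctp-/- mice (-0.58) and mt-Nd4l in WT mice (-0.78). mt-Atp8 fell in WT mice by 0.83 (standard error 0.29, adjusted p = 0.0271), from 1.85, 1.83 and 0.632 FPKM to 0.257, 0.497 and 0.258 FPKM, close to the low end of what was tested, and its difference in Pctp-/- mice of -0.49 passed with that correction, at -1.14 (adjusted p = 0.0146).

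**Figure D2:**
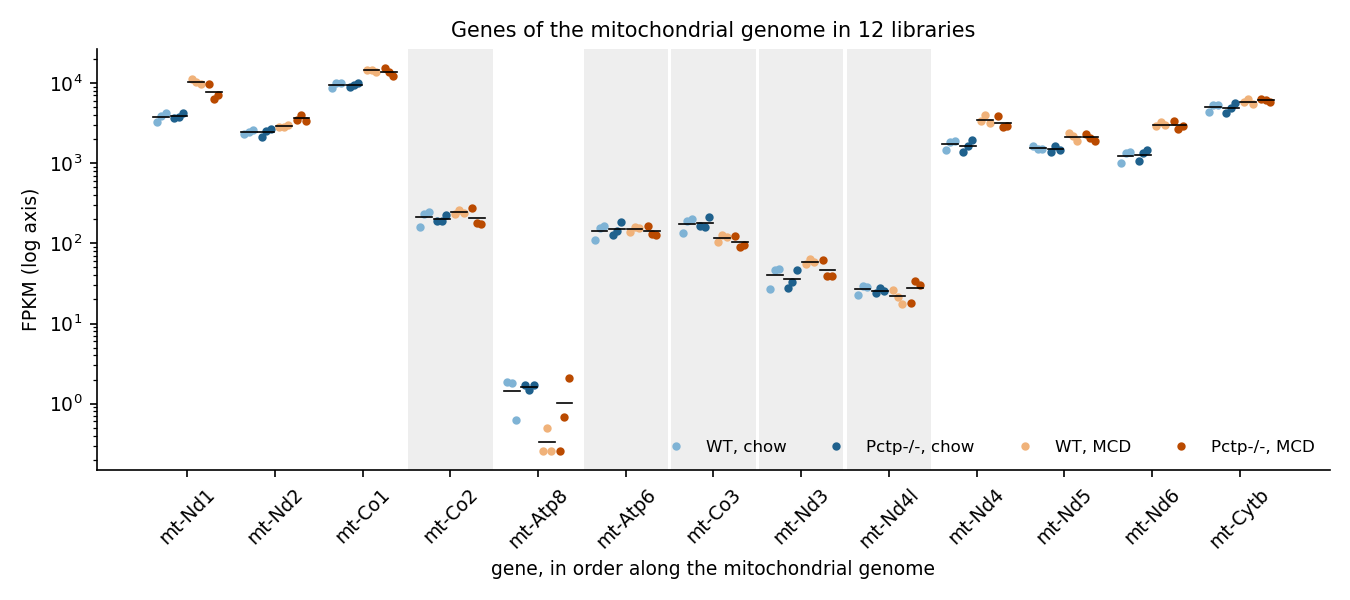
FPKM (log axis) of the 13 mitochondrial protein genes in order along the genome, with each point 1 of the 12 libraries, coloured by group. The 5 shaded genes, copied on chromosome 1 over at least 90% of their length, lie at 17.5 to 273 FPKM, below every library of mt-Co1 and mt-Nd1, and the MCD libraries of mt-Nd1, mt-Nd4 and mt-Nd6 lie above the chow libraries in both genotypes.

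The muscle-type isoforms Cox6a2 and Cox8b of complex IV were higher in every MCD liver than in any chow liver, and highest in WT replicates 1 and 2 on MCD. Cox6a2 and Cox8b are the heart and skeletal muscle forms of subunits 6a and 8, in place of Cox6a1 and Cox8a in liver. Cox6a2 was at 0.0639, 0 and 0 FPKM in WT mice on chow, at 0.0755, 0 and 0 FPKM in Pctp-/- mice on chow, at 4.79, 4.70 and 0.719 FPKM in WT mice on MCD and at 0.404, 0.209 and 0.559 FPKM in Pctp-/- mice on MCD. Cox8b was listed at 0 in every chow library, at 5.36, 4.90 and 0.581 FPKM in WT mice on MCD and at 0.882, 0.190 and 0.339 FPKM in Pctp-/- mice on MCD. WT replicates 1 and 2 on MCD thus stood apart from replicate 3 for both isoforms. Both rises in WT mice passed, at 1.91 (standard error 0.35, adjusted p = 0.000629) for Cox6a2 and 1.96 (standard error 0.40, adjusted p = 0.00132) for Cox8b. Both genes reached the mean level required for testing only through WT mice on MCD, chiefly replicates 1 and 2. The same high values thus admitted the genes and made the rises, so these p-values cannot be read as an independent test. The sizes of the rises rest largely on replicates 1 and 2. Between the genotypes on MCD, Cox6a2 differed by -1.47 (adjusted p = 0.0848) and Cox8b by -1.44 (adjusted p = 0.115).

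WT replicates 1 and 2 on MCD also held the highest levels of striated muscle markers. Tnnt3, a fast muscle troponin, was at 28.8, 26.8 and 0 FPKM in WT mice on MCD, Acta1, skeletal muscle actin and added to the list after the values were seen, at 12.4, 12.1 and 0 FPKM, and Ckm, muscle creatine kinase, at 3.89, 4.08 and 0 FPKM. Of the 5 striated muscle markers all were at 0 in every WT chow library, and their sum was 0 to 33.8 FPKM over WT mice on MCD and 0.0638 to 0.420 FPKM over Pctp-/- mice on MCD. In WT replicate 3 on MCD all 5 markers and Acta1 were at 0, beside 0.719 FPKM of Cox6a2 and 0.581 FPKM of Cox8b, and in Pctp-/- replicates 2 and 3 on MCD Tnnt3 was the only muscle marker above 0. The brown fat markers Ucp1 and Cidea summed to 0 to 0.101 FPKM over the 12 libraries. Without WT replicates 1 and 2 on MCD, 59 members rose and 2 fell on MCD in WT mice, with 58 and 2 of them shared with the calls from all libraries. That comparison leaves 1 WT mouse on MCD, whose spread is taken from the other groups. Cox7a1, the muscle form of subunit 7a, did not follow Cox6a2 and Cox8b, with 1.39, 4.31 and 3.72 FPKM in WT mice on chow and 3.32, 2.09 and 1.44 FPKM on MCD, and Cox6b2, the testis form of subunit 6b, was at 1.80, 1.02 and 1.32 FPKM and 1.88, 1.47 and 1.17 FPKM.

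**Figure D3:**
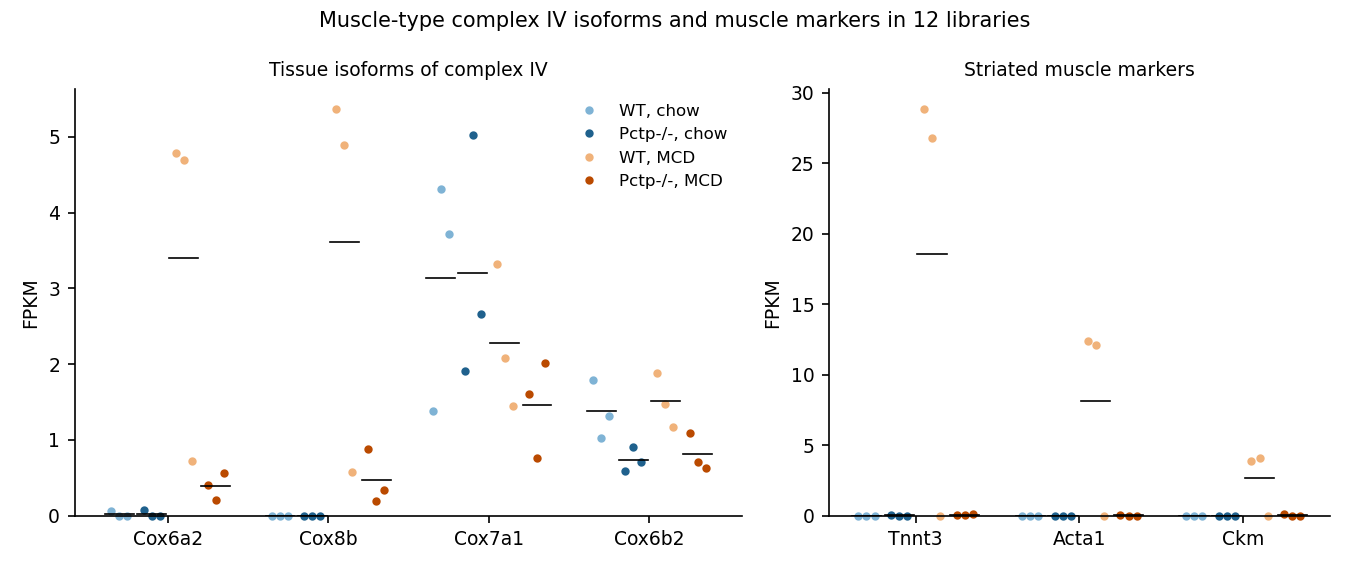
FPKM of Cox6a2, Cox8b, Cox7a1 and Cox6b2 and of the striated muscle markers Tnnt3, Acta1 and Ckm in the 12 libraries, coloured by group, with both axes starting at 0. In 2 of the 3 WT mice on MCD, Cox6a2 lies at 4.70 and 4.79 FPKM and Tnnt3 at 26.8 and 28.8 FPKM, and the third WT mouse on MCD has 0.719 and 0 FPKM.

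The size of the diet difference moved with the GC content of the transcripts, for members and for all genes. Over all tested genes with less than 45% GC the median difference in WT mice was 0.39, over those from 45 to 50% it was 0.23, over those from 50 to 55% it was 0.03, and at 55% or more it was -0.28. The nuclear members had medians of 0.98, 0.56, 0.55 and 0.35 in the same ranges, with 9, 30, 29 and 22 genes, and so lay above all genes in each range. In Pctp-/- mice the medians were 0.34, 0.17, -0.05 and -0.41 for all genes and 0.89, 0.44, 0.26 and -0.03 for nuclear members. Across the 90 nuclear members the difference in WT mice had a Pearson's r of -0.305 with GC content and -0.315 with the log2 of the exon length, and across 12401 genes the corresponding values were -0.321 and -0.0472. These are correlations across genes that share the same libraries, given as a description. Nuclear members had short coding sequences, with a median of 430.5 bases against 1362 for all tested protein-coding genes, and a median GC content of 51.2% against 50.7%.

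A correction for GC content and exon length, added after the data were seen, made the medians of nuclear members 0.40 in WT and 0.28 in Pctp-/- mice. With it 55 members rose and 17 fell in WT mice, so that 76.4% of the called members were higher in place of 89.6%, and 52 of the 69 rises and 7 of the 8 falls were shared. With the correction 48 rose and 16 fell in Pctp-/- mice, or 75% higher in place of 82.8%. Of the small nuclear subunits named above, some kept their rises, with corrected differences in WT mice of 1.41 for Uqcr10, 1.40 for Uqcr11, 1.44 for Atp5k, 1.23 for Atp5mpl and 0.94 for Cox7a2, and Ndufa4 lost its rise in both genotypes (0.11 and 0.12). The falls of Atp5d in Pctp-/- mice (-0.02) and of Ndufs7 in WT mice (-0.14), and in WT mice the rises of Atp5g3 (-0.07) and Ndufaf5 (0.34), no longer passed. The mitochondrial genes, whose GC content lies at 31.9 to 41.1%, moved further. Their corrected median was -0.37 in WT and -0.26 in Pctp-/- mice, mt-Co1, mt-Nd2 and mt-Nd5 changed sign in both genotypes, and mt-Nd1, mt-Nd4 and mt-Nd6 remained higher in WT mice with 0.82, 0.40 and 0.77, of which mt-Nd6 alone passed in Pctp-/- mice, at 0.55. The direction for the mitochondrial genes as a set therefore depends on whether GC content is taken into account.

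**Figure D4:**
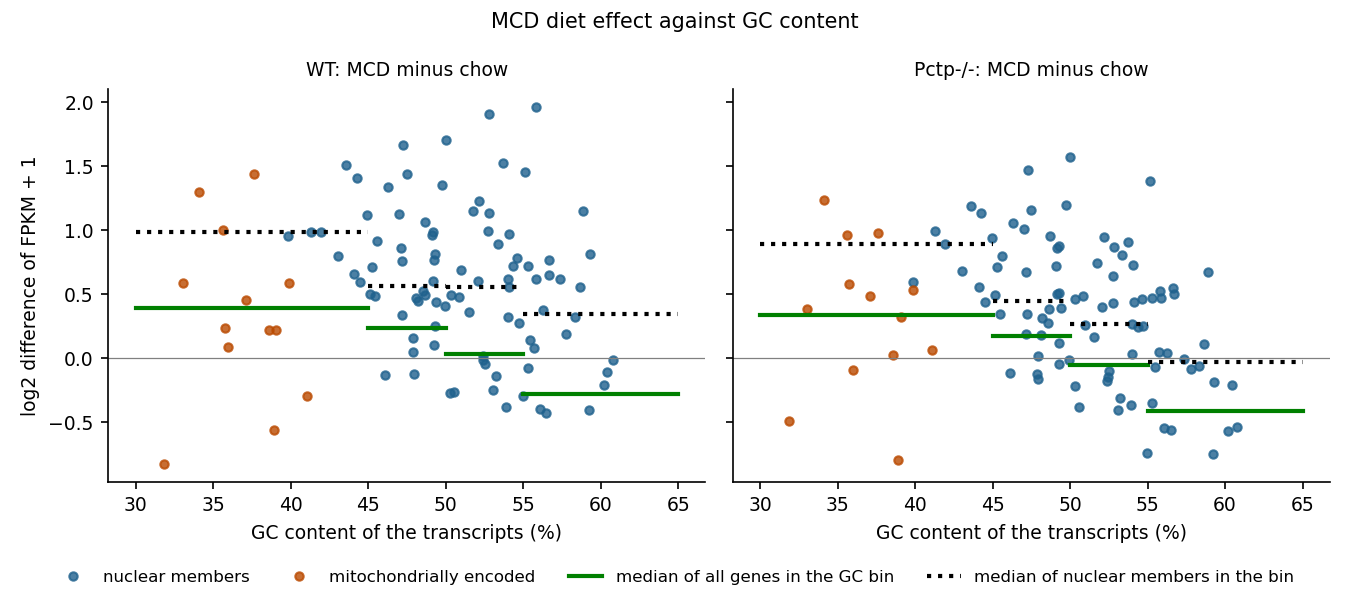
The log2 difference of FPKM + 1 between MCD and chow against the GC content of the transcripts in percent, for nuclear members and mitochondrial genes, with WT mice on the left and Pctp-/- mice on the right. Green lines are medians of all tested genes in a GC range and dotted lines those of nuclear members, which are 0.98 in WT mice in the lowest GC range and 0.35 in the highest.

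Promoter sequence was examined because many nuclear members are known targets of the factors NRF1, of the ETS factor GABP, of YY1 and of estrogen-related receptors (ERR). RefSeq promoter windows on GRCm38.p6, from 250 bases before to 50 bases after a transcription start, were found for 74 of the 93 nuclear members, as 79 windows. Both strands were searched for GCGCATGC (NRF1), CCGGAAG (ETS), AAGATGGC (YY1) and TCAAGGTCA (ERR). Where the NRF1 letters are followed by GC, matches on the plus and minus strands overlap. The NRF1 letters occurred in 15.2% of the members' windows and in 2.71% of all 32851 windows, the ETS letters in 22.8% and 8.86%, the YY1 letters in 12.7% and 2.75%, and the ERR letters in 2.53% and 0.423%. At least 1 of the 4 was found in 34 windows of members, 43%, and in 13.7% of all windows. Of the 34 members with a match, 25 rose, 3 fell and 6 were not called on MCD in WT mice, and of all 74 members with a window 52 rose and 5 fell. The stretch from 80 bases before to 20 bases after the start is printed for 3 members that rose, Atp5k at chr5:108434380-108434479, Uqcr11 at chr10:80406802-80406901 and Atp5g2 at chr15:102671028-102671127, all on the minus strand, and for Sdhb, which fell, at chr4:140961191-140961290 on the plus strand. Capitals mark matches to the NRF1 and ETS letters on either strand, including overlapping ones.
Atp5k: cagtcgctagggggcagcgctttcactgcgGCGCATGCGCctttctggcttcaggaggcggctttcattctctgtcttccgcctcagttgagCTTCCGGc
Uqcr11: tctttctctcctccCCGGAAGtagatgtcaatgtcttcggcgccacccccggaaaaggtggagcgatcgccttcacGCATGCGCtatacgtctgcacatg
Atp5g2: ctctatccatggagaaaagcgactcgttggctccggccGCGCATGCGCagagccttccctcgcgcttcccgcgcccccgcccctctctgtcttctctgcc
Sdhb: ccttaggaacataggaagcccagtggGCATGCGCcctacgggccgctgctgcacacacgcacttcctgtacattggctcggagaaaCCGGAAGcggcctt
The same letters were thus present around the start sites of members that rose and of one that fell. A match is a description of the window and no measurement of binding.

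The knockout was compared with WT on each diet to ask whether PC-TP bears on these genes. On chow no member differed between Pctp-/- and WT mice in limma, where 0.136% of all genes were called. An unadjusted p under 0.05 was found for 10 of 103 members, 9.71%, and for 6.98% of all genes. The median difference was 0.06 over the members and 0.01 over all genes. The median of the nuclear members was 0.00 when WT replicate 1 on chow, the library with the lowest levels, was left out. The smallest p-values belonged to Ndufa4l2, Cox6a1 and Cox6b2, whose values are given with those on MCD. Without overlap, 11 members were higher and 1 was lower in Pctp-/- mice, among them Uqcr10 with a difference of 0.33 (adjusted p = 0.561). Of all genes, 5.17% lay higher in the knockout without overlap and 5.38% lay lower.

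On MCD 1 member differed between the genotypes, where 0.818% of all genes were called. Ndufa4l2, a hypoxia-inducible relative of Ndufa4, was at 2.19, 3.17 and 2.24 FPKM in WT and 1.39, 1.00 and 1.40 FPKM in Pctp-/- mice, a difference of -0.64 (standard error 0.13, adjusted p = 0.0431). On chow the order was the other way, with 0.876, 1.09 and 1.01 FPKM in WT and 1.45, 1.67 and 1.58 FPKM in Pctp-/- mice and a difference of 0.37 (standard error 0.13, adjusted p = 0.473). Its level is low, and the call on MCD was lost in most other ways of processing the data, including a pseudocount of 0.1, median-of-ratios scaling and the GC correction, and leaving out 1 mouse at a time gave 0 to 3 called members, the 3 without WT replicate 3 on MCD. In all, 12 of the 103 members, 11.7%, had an unadjusted p under 0.05 on MCD, below the 16.3% of all genes. The median over the members was -0.11 and that over all genes -0.09. Without overlap, 3 members were higher and 11 lower in Pctp-/- mice, where over all genes 5.5% were higher and 21.1% lower.

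Cox6a1, the ubiquitous form of subunit 6a and the nuclear gene of complex IV with the highest mean FPKM, was at 687, 687 and 672 FPKM in WT and 725, 861 and 855 FPKM in Pctp-/- mice on chow. On MCD it was at 674, 695 and 657 FPKM in WT and 559, 535 and 587 FPKM in Pctp-/- mice. Pctp-/- mice thus lay above WT mice on chow and below them on MCD without overlap, and the diet difference was -0.01 (standard error 0.09, adjusted p = 0.902) in WT and -0.53 (standard error 0.09, adjusted p = 0.00036) in Pctp-/- mice. With GC content and length taken into account the diet differences of Cox6a1 were 0.36 and 0.02. The difference between the genotypes did not pass on either diet, with 0.25 on chow (adjusted p = 0.489) and -0.27 on MCD (adjusted p = 0.162). Cox6b2 was lower in Pctp-/- mice on both diets without overlap, with 1.80, 1.02 and 1.32 FPKM in WT and 0.595, 0.912 and 0.709 FPKM in Pctp-/- mice on chow and 1.88, 1.47 and 1.17 FPKM and 1.09, 0.706 and 0.628 FPKM on MCD. The differences of -0.44 (adjusted p = 0.489) and -0.47 (adjusted p = 0.169) did not pass.

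**Figure D5:**
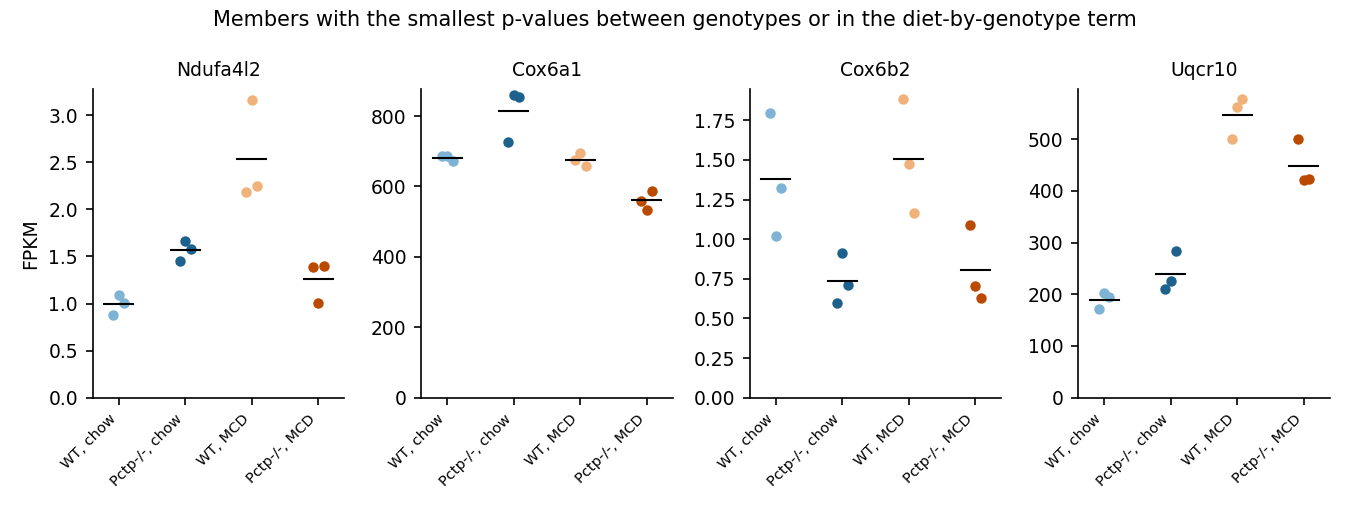
FPKM of the members with the smallest p-values between genotypes or for the dependence of the diet difference on genotype, each panel 1 gene and each point 1 library by group, with axes from 0. Ndufa4l2 and Cox6a1 lie higher in Pctp-/- than in WT mice on chow and lower on MCD.

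The diet difference was compared between the genotypes with the interaction of genotype and diet. In limma no member passed, where 0.0963% of all genes were called, and 3 members passed without WT replicate 3 on MCD. An unadjusted p under 0.05 was found for 15 of 103 members, 14.6%, and for 15.1% of all genes. The estimated interaction was negative for 90 of 103 members, 87.4%, and for 64.6% of all genes, which takes in smaller rises and deeper falls in Pctp-/- mice alike, with a median of -0.17 over the members and -0.10 over all genes. The smallest p-values belonged to Ndufa4l2 at -1.003 (standard error 0.18, adjusted p = 0.0694), Cox6a1 at -0.52 (standard error 0.12, adjusted p = 0.117) and Uqcr10 at -0.62 (standard error 0.17, adjusted p = 0.143). By set, the median interaction was -0.29 for the nuclear genes of complex IV, -0.16 for those of complex I, -0.15 for those of complex III and of ATP synthase, and -0.02 for complex II. With 3 mice in each group an exact two-sided permutation test of a single gene cannot give a p under 0.1, so calls rest on the spread that limma shares among genes.

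Other genes of the pathway were counted by list, to be read beside the 34.5% of all genes that rose and 22.5% that fell on MCD in WT mice and the 26% and 24.4% in Pctp-/- mice. Of 8 electron carriers and dehydrogenases that feed the chain, 2 rose and 4 fell on MCD in WT mice and 1 rose and 3 fell in Pctp-/- mice. Gpd2, the glycerol phosphate dehydrogenase of the inner membrane, rose by 0.77 and 0.75. Cycs, cytochrome c, rose by 0.63 in WT mice, and Cyc1, the cytochrome subunit of complex III outside the symbols used for the members, changed by -0.30 and -0.56. Of 37 tested assembly factors of complexes II to V and further factors of complex I, 18 rose and 4 fell in WT mice and 10 rose and 5 fell in Pctp-/- mice, led by Coa6 at 1.33 and 0.87 and Pet100 at 1.25 and 0.82, both of complex IV. Of 13 genes of coenzyme Q synthesis 4 rose and 4 fell in WT mice, 30.8% each, and 1 rose and 5 fell in Pctp-/- mice. Coq8a, an atypical kinase of that pathway, had the steepest fall, at -1.59 (standard error 0.17, adjusted p = 1.19e-05) in WT and -2.01 (standard error 0.17, adjusted p = 2.67e-06) in Pctp-/- mice.

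Among genes that maintain and express the mitochondrial genome, of 21 tested, 11 rose and 5 fell in WT mice and 6 rose and 6 fell in Pctp-/- mice. Polrmt, the RNA polymerase of mitochondria, fell by 0.86 in WT and by 1.20 in Pctp-/- mice, and Top1mt, their topoisomerase, fell by 0.98 and 1.20. Tfam, which packs and starts transcription of the genome, rose by 0.34 in WT mice (adjusted p = 0.00685) and 0.33 in Pctp-/- mice (adjusted p = 0.00968), and Slirp, which protects mitochondrial messengers, rose by 0.97 and 0.79. Its partner Lrpprc differed by -0.05 (adjusted p = 0.629) and 0.04 (adjusted p = 0.746). Of 76 tested proteins of the mitochondrial ribosome 46 rose and 6 fell in WT mice and 30 rose and 14 fell in Pctp-/- mice.

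Among 10 nuclear regulators, Ppargc1a, the coactivator PGC-1alpha, rose by 1.04 (standard error 0.14, adjusted p = 7.65e-05) in WT and 1.35 (standard error 0.14, adjusted p = 1.47e-05) in Pctp-/- mice. Its relative Ppargc1b fell by 0.99 in WT mice and differed by -0.15 in Pctp-/- mice (adjusted p = 0.619). Gabpa rose by 0.27 in WT mice (adjusted p = 0.0304) and differed by 0.15 in Pctp-/- mice (adjusted p = 0.209). Nrf1 fell in Pctp-/- mice by 0.39 (adjusted p = 0.0244) and differed by 0.09 in WT mice (adjusted p = 0.572), and Esrra differed by 0.03 (adjusted p = 0.803) and -0.25 (adjusted p = 0.0773). Of 17 genes of the citrate cycle and pyruvate dehydrogenase 10 rose and 1 fell in WT mice and 7 rose in Pctp-/- mice, with Idh3a at 1.30 and 0.99. Of 8 tested carriers and porins 6 rose in WT and 5 in Pctp-/- mice, with the ADP/ATP carriers Slc25a4 at 1.45 and 0.67 and Slc25a5 at 1.23 and 1.06. Between the genotypes on MCD Slc25a4 differed by -0.64 in limma (adjusted p = 0.107). The part of the muscle RNA of some WT libraries on MCD in these values was not tested.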

How the data were processed

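The deposited table gave FPKM values per gene for 12 libraries, 1 per mouse, with 3 mice in each of 4 groups. The authors had the libraries sequenced by Novogene, and the labels name the genome build mm10. The aligner, the counter and the annotation are not given in the sources used here. FPKM are not counts, so the test on counts named in the methods was not run. A second deposited table of mapping statistics, in reads and percent, was used for depth, mapped shares, GC content of the reads, base quality and error rates.

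Gene identifiers were matched to GENCODE M21, which held 34490 of the 35275. Genes with a mean of at least 0.5 FPKM over the 12 libraries (12466) entered limma 3.58.1 in R 4.3.3 on log2(FPKM + 1), with 1 mean per group and a trend of the variance on the mean. P-values were adjusted by Benjamini-Hochberg over every gene tested, and a call was made at an adjusted p under 0.05. The fit was tested on simulated data. Summaries, sequences and plots used Python 3.11.15, pandas 2.3.3, Biopython 1.88 and matplotlib 3.10.9. Alternatives were another pseudocount, filters, scalings, the replicate block, each mouse left out in turn and a correction for GC content and exon length, which had values for 12401 of the tested genes. No 2 libraries were identical (0 pairs).

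The members, the other gene lists and the motifs were chosen with earlier results of these data known. The genes described were the mitochondrial genes, the 5 largest rises and falls among called members of each comparison or else the 3 smallest p-values, isoforms and paralogs, the most and least abundant nuclear member of each complex, the 4 Sdh genes, up to 2 leading genes of each other list, and 8 regulators. Not every called member is reported by name here.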

Additional observations from a re-analysis of the deposited data

Results flagged for a closer look

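For 2 members all Pctp-/- mice moved in one direction relative to WT mice on chow and in the other on MCD, so that the genotypes did not overlap on either diet. Of all genes, 5.17% lay higher and 5.38% lower in Pctp-/- mice without overlap on chow, and 5.5% and 21.1% on MCD. The share of all genes that changed order in this way was not counted, so the 2 members have no background to be read against. For Cox6a1 the difference between the diet effects in Pctp-/- and WT mice was -0.52 on the log2 scale in limma (adjusted p = 0.117, from 0.0635 to 0.57 over the alternatives). For Ndufa4l2 the same difference was -1.003 (adjusted p = 0.0694, from 0.0435 to 0.326 over the alternatives), and it passed when WT replicate 3 on MCD was left out. Neither passed with all libraries.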

How the results depend on the processing

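The direction of the median of the nuclear members on MCD and the side of the threshold of most calls did not depend on the processing. The direction of some single members, given below, and the single call between genotypes did. On MCD the count of members called between genotypes was 0 in place of 1 with a pseudocount of 0.1, without the filter, with a mean of at least 5 FPKM, with quantile normalization, with median-of-ratios scaling, with the libraries compared alone, with the replicate block, and, in alternatives chosen after seeing the data, without both muscle-bearing libraries and with the correction for GC content and length. Leaving out 1 mouse gave 0 to 3, the 3 arising without WT replicate 3 on MCD, which also gave 3 calls for the difference of diet effects (0 to 3). With median-of-ratios scaling the median of nuclear members was 0.47 on MCD in WT mice and -0.00086 between genotypes on MCD. That scaling and quantile normalization moved the median of all genes on MCD in WT mice from 0.11 to 0.01, and between genotypes on MCD from -0.09 to -0.01 and -0.00.

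With the GC and length correction the nuclear medians were 0.40 in WT mice, 0.28 in Pctp-/- mice and -0.052 for the difference of diet effects, and the mitochondrial medians were -0.37 and -0.26. Under it the sign turned in WT mice for Atp5g3 (-0.069), Cox6a1 (0.36), Uqcrc2 (-0.043), mt-Atp6 (-0.50), mt-Co1 (-0.034), mt-Cytb (-0.41), mt-Nd2 (-0.37) and mt-Nd5 (-0.16), and in Pctp-/- mice for Cox6a1 (0.017), mt-Co1 (-0.019), mt-Co2 (-0.58), mt-Nd2 (-0.081) and mt-Nd5 (-0.11). Quantile normalization turned Atp5b in Pctp-/- mice to 0.19 (adjusted p = 0.0436). The cause was not tested. Falls on MCD in WT mice numbered 17 under the correction, 2 without both muscle-bearing libraries and 4 without WT replicate 1 on MCD, in place of 8.

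The replicate block gave 71 rises and 9 falls on MCD in WT mice and 80 calls in all, and 70 calls in Pctp-/- mice. For the difference of diet effects over all genes, the block gave 29 higher and 30 lower calls in place of 5 and 7. Of 18 same-numbered pairs of libraries, 8 had a correlation over 0.1 (range -0.0972 to 0.225). Pairs with different numbers were not compared, so whether replicate numbers pair the mice was not settled. The main fit used no pairing. FPKM carry no counts, so no counting interval was set for any value.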
